A study of Mus musculus with 4 samples.

Results

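Nicotinic acetylcholine receptor genes were examined for binding of a fusion of Isl1 and Lhx3, a pair of LIM-homeodomain factors that direct motor neuron fate. The 6 genes were Chrna3, Chrna4, Chrna5, Chrna7, Chrnb2 and Chrnb4. A peak was assigned to one of them when its maximum had one of that gene's transcription starts as the nearest start of any protein-coding gene. By this rule 3 of the 6 genes had a peak (Chrnb4, Chrna5 and Chrna4), each with 1 peak, out of 2454 peaks on the nuclear chromosomes. Chrna3, Chrnb2 and Chrna7 had none. Across 22338 protein-coding genes that could receive a peak, 1826 (8.17%) had at least 1. The genes had been chosen with earlier results of these data known, so the share of 3 in 6 is a description and was not tested.

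The peaks came from Flag ChIP-seq of iMN-ESCs, mouse embryonic stem cells derived from the A172LoxP line that carry a Tet-inducible transgene for the Flag-tagged fusion. There were 2 libraries with doxycycline (Dox, 2 µg/mL), which switches the transgene on, and 2 without Dox, in 2 numbered sets. All 4 libraries came from embryoid bodies treated with 0.5 µM retinoic acid alone during the first 2 days. Retinoic acid went on for 4 more days with Dox added or left out, and LIF was given over the 16 hours that preceded harvest. Whether the cells were 1 clone or a pool of transfectants is not given in the sources used here, nor whether the sets were separate cultures. Since 1 list was deposited for the series, with no value for any one library, the depth of each library is unknown. Which libraries entered the list is not given in the sources used here. No difference between libraries or sets could be tested. A peak list holds no expression values, so the labelled cell type could not be checked against marker genes, and a peak says nothing of whether the gene was transcribed.

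Nicotinic receptors are ion channels opened by acetylcholine, the transmitter that motor neurons release, and each channel is built from several subunits. Chrna4 and Chrnb2 encode the subunits of the main high-affinity receptor of the brain. Chrna3 and Chrnb4 encode those of the receptor of autonomic ganglia, which Chrna5 joins as an accessory subunit, and Chrna7 encodes a subunit that can form a channel by itself. In the spinal cord, collaterals of motor axons excite Renshaw interneurons through nicotinic receptors.

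Homeodomain factors bind sequences with an ATTA core, so the 200 bp around each maximum are shown first, for the 3 peaks of the receptor genes and for the only other 2 peaks within 100 kb of one of their starts. These 2 lay nearer to the starts of Ube2q2 and Ube2q1. All are plus-strand sequence of mm9, and capitals mark every ATTA core on either strand (ATTA or TAAT as printed). The windows are chr9:54931040-54931239 for Chrnb4, chr9:54821672-54821871 for Chrna5, chr2:180776875-180777074 for Chrna4, chr9:54949166-54949365 for Ube2q2 and chr3:89604092-89604291 for Ube2q1.
Chrnb4 peak: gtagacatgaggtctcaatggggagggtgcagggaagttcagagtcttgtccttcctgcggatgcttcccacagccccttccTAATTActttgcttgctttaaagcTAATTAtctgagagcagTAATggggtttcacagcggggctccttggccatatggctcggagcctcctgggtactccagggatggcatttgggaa
Chrna5 peak: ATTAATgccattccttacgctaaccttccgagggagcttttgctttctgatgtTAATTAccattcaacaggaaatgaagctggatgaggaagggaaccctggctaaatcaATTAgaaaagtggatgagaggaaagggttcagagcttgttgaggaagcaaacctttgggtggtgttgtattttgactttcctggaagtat
Chrna4 peak: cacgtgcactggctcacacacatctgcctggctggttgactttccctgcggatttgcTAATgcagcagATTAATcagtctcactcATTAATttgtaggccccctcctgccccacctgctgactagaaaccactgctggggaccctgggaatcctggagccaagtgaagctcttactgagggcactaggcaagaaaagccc
Ube2q2 peak: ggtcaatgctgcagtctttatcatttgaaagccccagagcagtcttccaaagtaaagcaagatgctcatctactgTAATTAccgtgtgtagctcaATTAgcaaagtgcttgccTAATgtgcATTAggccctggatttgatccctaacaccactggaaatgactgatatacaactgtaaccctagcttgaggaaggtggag
Ube2q1 peak: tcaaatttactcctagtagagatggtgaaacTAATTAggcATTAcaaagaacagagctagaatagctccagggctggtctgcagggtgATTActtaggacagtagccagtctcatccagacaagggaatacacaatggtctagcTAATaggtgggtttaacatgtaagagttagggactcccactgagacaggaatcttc

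Chrnb4 had the strongest of the 3 assigned peaks. It lay at chromosome 9, 54930891 to 54931390 (the deposited 500 bp window), and was given a ChIP score of 58.35 with 0 for background, on 45 tags in its region (32.8 to 60.2, exact 95% Poisson interval). The ChIP and background scores are the authors' values, on a scale that is not stated, and intervals of tags cover counting error only. By score it ranked 493 of 2454, and 79.8% of peaks scored lower. The maximum was intergenic, 34.79 kb upstream of the single annotated Chrnb4 start. The next nearest coding start was that of Chrna3, at 56.77 kb on the same side, and on the other side stood Ube2q2, at 65.52 kb. A U7 small nuclear RNA gene was nearer than any of them, at 21.51 kb.

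Chrna5 had a weaker peak on the opposite side of the gene cluster. This peak (chromosome 9, 54821523 to 54822022) scored 37.47 for ChIP and 0 for background, on 25 tags (16.2 to 36.9). It ranked 1480, with 38.9% of peaks lower. The maximum was intergenic, 6.92 kb upstream of the first Chrna5 start and 7.57 kb upstream of the last of its 3 starts. Psma4, a proteasome subunit gene, was the nearest coding gene on the other side, at 22.86 kb.

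Chrna4 was the only one of the 6 genes with a peak inside its own body. The peak (chromosome 2, 180776726 to 180777225) scored 35.33 for ChIP and 0.05 for background, on 16 tags (9.15 to 26.0). It ranked 1692 by score, with 29.7% of peaks lower, and only 4.43% of regions held fewer tags. Its region was short, at 262 bp against a median of 467 bp, and tags were not adjusted for length. The maximum lay in an intron, 1.28 kb downstream of the most upstream Chrna4 start and 2.97 to 3.08 kb upstream of the other 3 starts. No other coding start was within 29.03 kb, where that of the collagen gene Col20a1 stood.

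Set side by side, the 3 peaks were of middle to low strength within the list, apart from that of Chrnb4. Their median ChIP score was 37.47, against 40.95 over all peaks (quartiles 34.26 and 54.07). Only the Chrnb4 peak was above the upper quartile. The Poisson intervals of the 3 tag counts overlapped between Chrnb4 and Chrna5 and between Chrna5 and Chrna4, but that of Chrna4 ended below that of Chrnb4. The regions were 502 bp long at Chrnb4, 361 bp at Chrna5 and 262 bp at Chrna4, so these counts cover unequal lengths. A background score of 0 was found at 2 of the 3 peaks, against 31.1% of all peaks, and at Chrna4 the background score was 0.142% of the ChIP score, or 2.89% with 1 added to each score. Neither the labels nor the header say which libraries the background score came from.

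**Figure D1:**
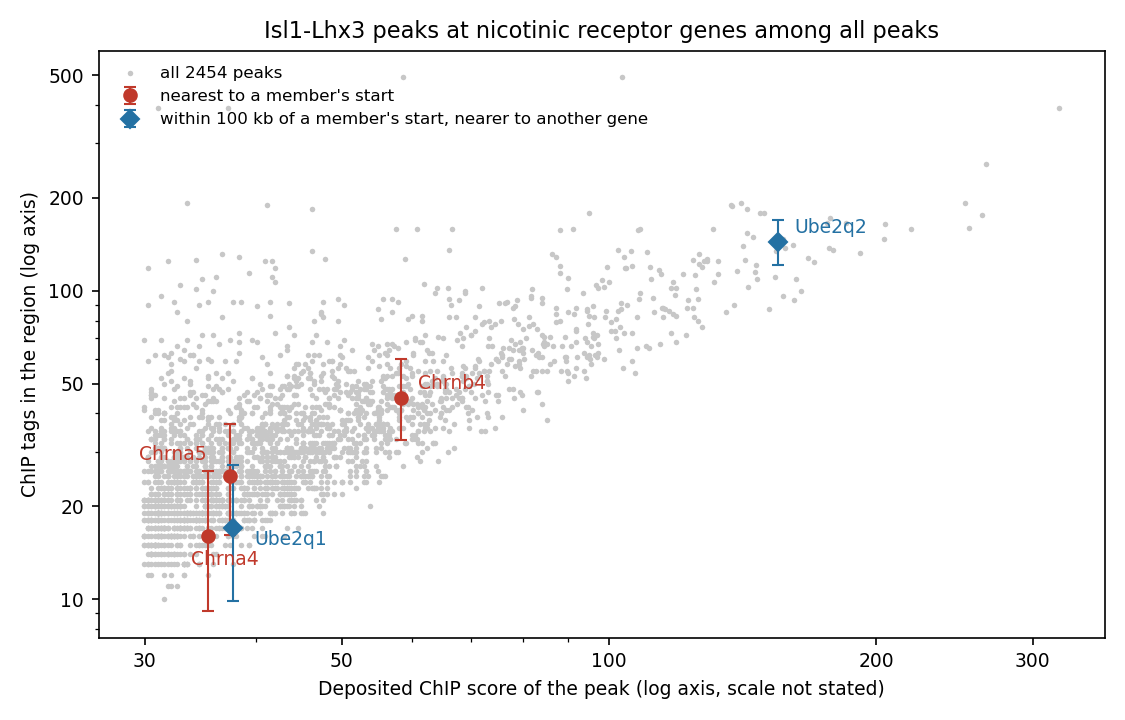
ChIP score (x, log axis) against ChIP tags in the region (y, log axis) for all 2454 peaks in grey, the 3 peaks of nicotinic receptor genes in red and the 2 nearby peaks of other genes in blue, with 95% Poisson intervals of the tags. Chrna4 (35.33) and Chrna5 (37.47) sit among the low scores, Chrnb4 (58.35) above the upper quartile of 54.07, and the peak assigned to Ube2q2 (154.97) among the highest.

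The 3 clustered genes, Chrna5, Chrna3 and Chrnb4, lie next to each other on chromosome 9, from 54828687 to 54896351, a stretch of 67.67 kb. None of the peaks fell inside this stretch: the Chrna5 peak lay before its first base and the Chrnb4 peak after its last, 109.37 kb apart. Of the 2434 distances between neighbouring peaks, 28.6% were shorter than 109.37 kb, and the median was 413.24 kb. A stretch of this length without a peak is therefore common. Chrna3 stands between its neighbours, with a gap of 3.56 kb to Chrna5 and 1.60 kb to Chrnb4. Its start was 52.59 kb from the Chrna5 peak and 56.77 kb from the Chrnb4 peak, so both maxima were nearer to a neighbour's start. Of the other genes on the Chrna5 side, Ireb2, Agphd1 and Psma4 had no assigned peak. Adamts7 lies far away on the mouse chromosome (from 90057816) and had none either.

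A much stronger peak lay just beyond the Chrnb4 peak. It was found 18.13 kb further upstream (chromosome 9, 54949017 to 54949516, intergenic), where the ChIP score reached 154.97 and the background score 0.99, on 144 tags (121 to 170). It ranked 24 of 2454. Its score was 2.66 times and its tag count 3.20 times that of the Chrnb4 peak, and the tag intervals did not overlap. Its region was also longer, at 907 bp against 502 bp, and the tag counts were not adjusted for this. Ube2q2, which encodes a ubiquitin-conjugating enzyme, had the nearest coding start, at 47.40 kb, whereas the Chrnb4 start was 52.92 kb away on the other side. A difference of 5.52 kb thus kept this peak from being assigned to Chrnb4. The list does not show which of these genes, if any, either site acts on. The next peak on that side, of score 32.39, lay 176.73 kb from the Chrnb4 start and was nearest to Fbxo22.

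**Figure D2:**
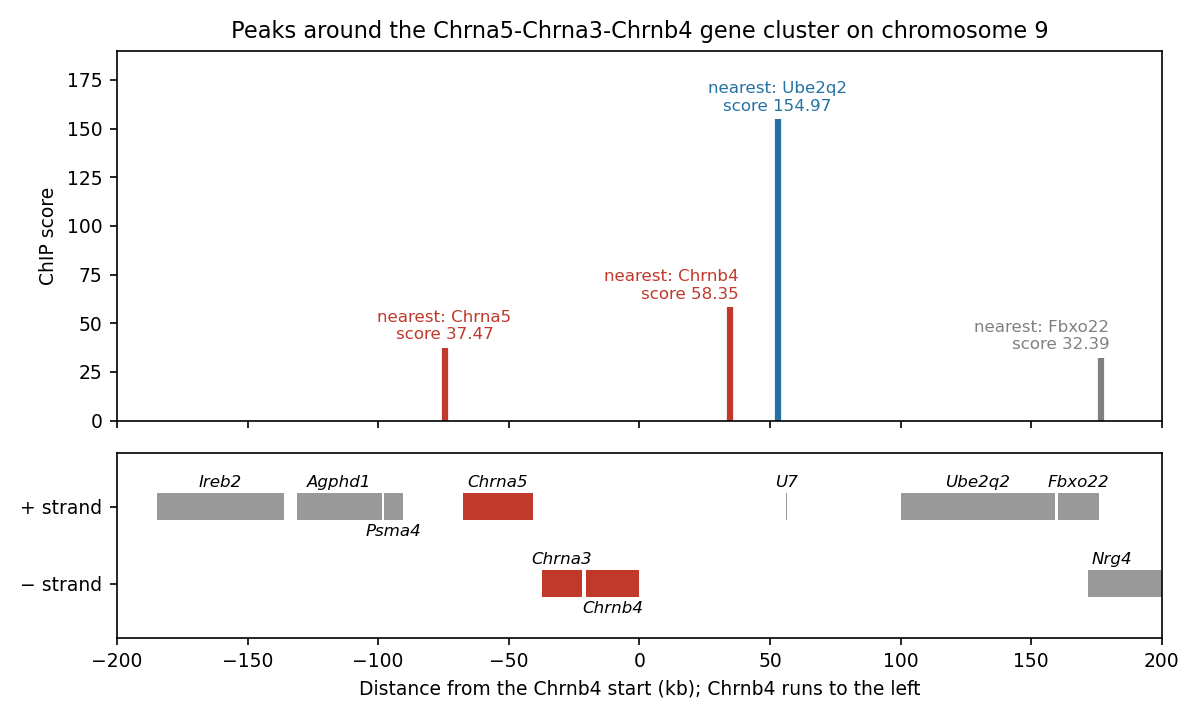
Top, ChIP score of each peak within 200 kb of the Chrnb4 start on chromosome 9, against distance from that start in kb. Bottom, annotated genes by strand (the short gene AY074887 beside Psma4 is not drawn), with nicotinic receptor genes in red. The peaks of Chrna5 and Chrnb4 flank the 3 receptor genes and none lies between them, and the peak of score 154.97 stands between Chrnb4 and Ube2q2.

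Chrnb2, the partner of Chrna4, had no assigned peak but had one nearby. The gene lies at chromosome 3, 89557370 to 89568554, with 1 start. The nearest maximum was 35.64 kb upstream of it, in an intergenic peak (89603943 to 89604442) scoring 37.74 for ChIP and 0.23 for background, on 17 tags (9.90 to 27.2). Its nearest coding start was that of Ube2q1, a ubiquitin-conjugating enzyme gene, at 26.66 kb, and She stood at 31.10 kb on the other side. The stretch of sequence nearest to the Chrnb2 start was short, at 13.80 kb against a median of 45.58 kb per coding gene, and 14.0% of coding genes had a shorter one. The next peak was 482.48 kb from the start.

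Chrna7 had neither an assigned peak nor one nearby. The gene spans 113.88 kb on chromosome 7 (70243578 to 70357455) and has 3 starts. The nearest maximum was 676.48 kb away, in a peak of score 32.12 assigned to Klf13. The other flanking peak, of score 33.19, was assigned to Gabrg3, 5919.28 kb beyond the far end of the gene. The distance of 6709.64 kb between these 2 maxima was matched or exceeded by 36 of the 2434 distances between neighbouring peaks, whose median was 413.24 kb. The interval held 17 coding genes and 0.745% unknown bases. The stretch nearest to Chrna7 starts, 510.59 kb, was longer than that of 95.6% of coding genes. How well tags could be placed there was not tested.

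Measured by distance alone, whichever gene was nearest, 5 of the 6 genes had a peak within 100 kb of a start, against 21.0% of coding genes. The count rests on 3 of 4 separate loci, since Chrna5, Chrna3 and Chrnb4 share peaks. By the same measure 4 of the 5 muscle subunit genes had a peak, so the 6 genes are not set apart from those by it. The muscle count was not reduced to separate loci. Of the 5 other neuronal subunit genes, 1 had a peak at this distance. Within 10 kb, Chrna4 and Chrna5 had one, against 3.68% of coding genes. In order of distance came Chrna4 (1.28 kb), Chrna5 (6.92 kb), Chrnb4 (34.79 kb), Chrnb2 (35.64 kb), Chrna3 (52.59 kb) and Chrna7 (676.48 kb). Chrnb4 and Chrnb2 were almost equal here, although only Chrnb4 was assigned its peak. The median over 22321 coding genes on chromosomes with peaks was 344.17 kb, and 69.2% of them had a peak nearer than Chrna7 did.

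**Figure D3:**
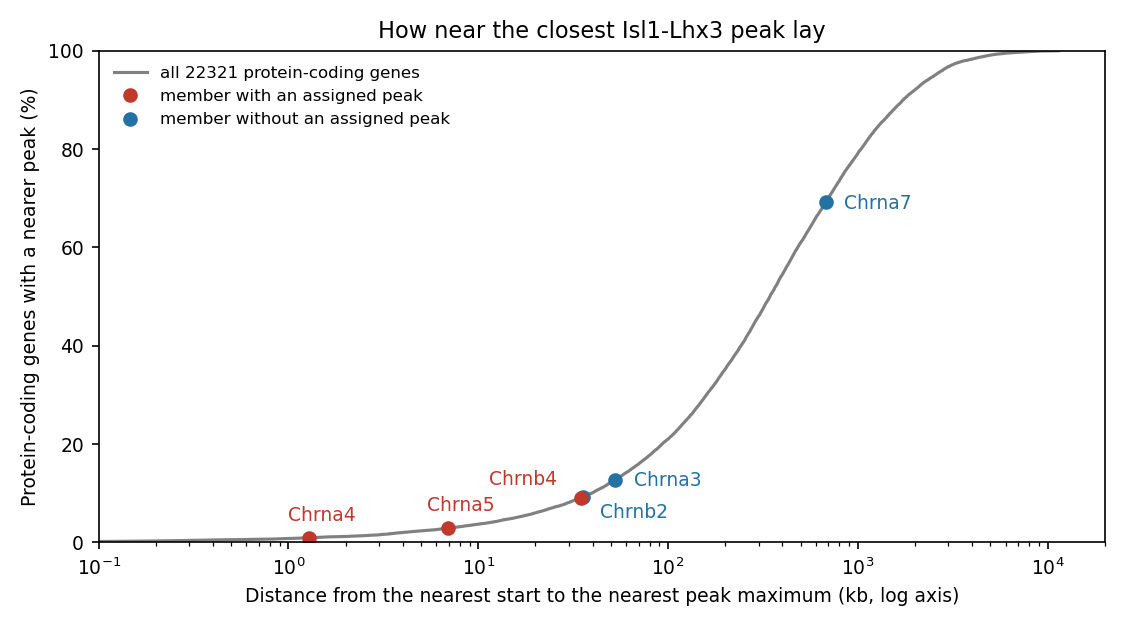
Distance in kb from each gene's starts to the nearest peak maximum (x, log axis) and the percentage of 22321 protein-coding genes with a nearer peak (y). The grey line is all genes, red points are receptor genes with an assigned peak and blue points those without. Chrna4 to Chrna3 lie between 1.28 and 52.59 kb, below the median of 344.17 kb, and Chrna7 lies above it at 676.48 kb.

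Homeodomain cores lay close to all 3 maxima. TAATTA, a palindrome that LIM-homeodomain factors bind, was found in the windows of Chrnb4 and Chrna5 but not of Chrna4. Among all peaks 34.3% had a match in the 200 bp window, and 6.50% of windows 1 kb to either side did. In the Chrnb4 window TAATTA occurred at 2 places, centred 15.5 bp before and 8.5 bp after the maximum. Only 5.99% of peaks had 2 or more. In the Chrna5 window the single TAATTA was centred 44.5 bp before the maximum.

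The ATTA core alone, which is contained in TAATTA on both strands, was in all 3 windows and in 94.2% of all peaks. Each of the 3 windows held 5 matches, counting both strands, as did the windows of the Ube2q2 and Ube2q1 peaks. The median over all peaks was 3, and 16.6% had 5 or more. The core nearest to the maximum was centred 7.5 bp from it at Chrnb4 and 11.5 bp at Chrna5 and Chrna4, against a median of 15.5 bp. In place of TAATTA, the Chrna4 window had ATTAAT, which also contains the core on both strands, at 2 places, 29.5 and 12.5 bp before the maximum. ATTAAT was chosen after the windows were seen. It was also at the edge of the Chrna5 window, and 13.2% of all peaks had it. GC content was 52.5% at Chrnb4, 42.0% at Chrna5 and 54.0% at Chrna4, against a mean of 48.2%.

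**Figure D4:**
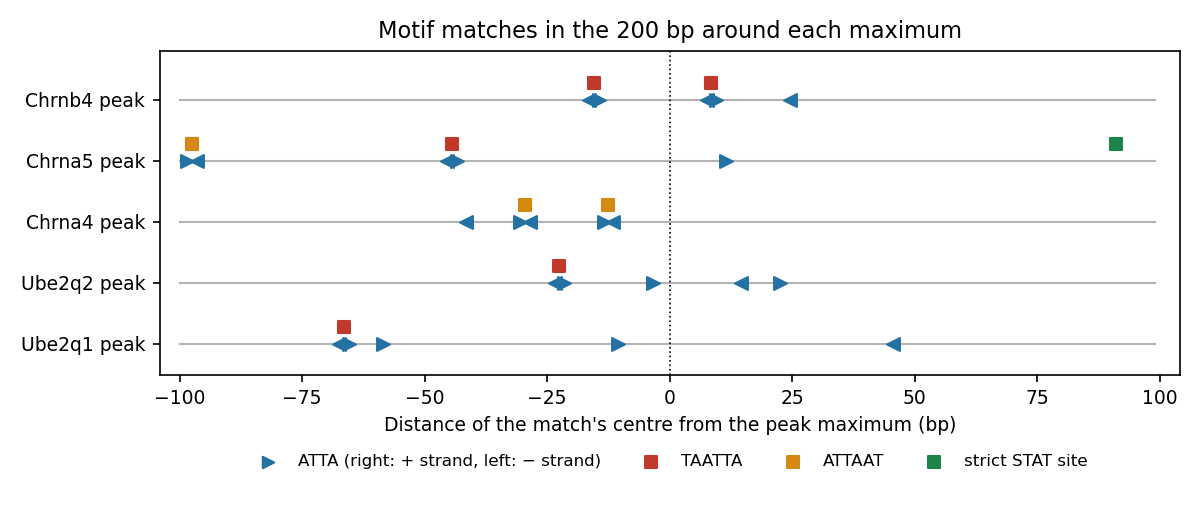
Places of motif matches in the 200 bp around each maximum, as distance in bp from the maximum to the centre of the match. Blue triangles are ATTA cores by strand, and squares above the line are TAATTA (red), ATTAAT (orange) and the strict STAT site (green). Chrnb4 has TAATTA on both sides of the maximum, Chrna4 has ATTAAT only, and the STAT site is at the Chrna5 window alone.

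STAT3, named beside the LIM complex in the series title, is a transcription factor activated by LIF signalling, and its strict site TTCCNGGAA was found at the Chrna5 peak. Only 0.733% of all peaks had it within the 200 bp window, as did 0.856% of the flanking windows. The looser site TTCNNNGAA, which includes the strict one, was in 5.01% of peaks and at no other of the 3. The match was centred 91 bp after the maximum, near the edge of the window but inside the deposited region (54821562 to 54821922). It is shown here in capitals with 20 bases to each side, on the plus strand of mm9 (chr9:54821839-54821887).
Chrna5 STAT site: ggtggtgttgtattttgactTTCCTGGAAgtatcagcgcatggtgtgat
STAT3 binding was not measured in these libraries. No match was found in any of the 3 windows for the POU octamer ATGCAAAT (4.24% of all peaks), the E-box CAGCTG (13.9%), the control with 4 bases between TTC and GAA (5.42%), or pairs of cores with ATTA, 3 or 10 bases and TAAT, or TAAT, 5 bases and TAAT (4.93%, 2.93% and 6.03%).

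The remaining nicotinic subunit genes had no assigned peak. This held for all 5 other neuronal subunits (Chrna2, Chrna6, Chrna9, Chrna10 and Chrnb3) and all 5 muscle subunits (Chrna1, Chrnb1, Chrnd, Chrne and Chrng), which form the receptor of the neuromuscular junction. A count of 0 of 5 allows a share of up to 52.2% by the exact binomial interval. Altogether 3 of 16 nicotinic genes (18.8%) had a peak, against 8.17% of all coding genes. Maxima nearer to other genes lay within 100 kb of 4 muscle genes: Chrng (24.97 kb, the closest), Chrnd (39.94 kb), Chrne (51.69 kb) and Chrnb1 (86.88 kb), while Chrna1 was 556.47 kb from one. Among the other neuronal genes Chrna2 came closest, at 82.92 kb, and the remaining 4 were 448.89 kb (Chrna9) to 2020.94 kb (Chrna6) away. The 5 muscarinic receptor genes had no assigned peak, and maxima lay within 100 kb of 2 of them. Chrm1 was 39.27 kb from a maximum, the closest of the 5, and Chrm3 was 113.43 kb from one.

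Other genes of cholinergic signalling were read beside the receptors. In the synthesis, transport and breakdown of acetylcholine, 4 of 8 genes with a record had a peak, with 7 peaks of median score 47.37. The strongest were assigned to Chat, choline acetyltransferase (87.25), Acly, the source of cytosolic acetyl-CoA (61.56), Slc10a4 (42.82) and Prima1, an acetylcholinesterase anchor (39.88). The Prima1 peak lay in a coding exon of another gene, Unc79, 33.14 kb from the Prima1 start. Its background score was 2.57. Ache and Slc5a7 had no peak. Chat and Acly thus scored above the Chrnb4 peak. Among chaperones and Ly6-type modulators of nicotinic receptors, 1 of 13 genes had a peak (7.69%, 0.195 to 36.0): Lypd6b, with a score of 33.19 at 23.87 kb from its start, in an intron. The chaperone gene Ric3 and the toxin-like modulator Lynx1 had none. Of 5 genes that cluster receptors at the neuromuscular junction, Rapsn and Musk included, 0 had a peak, and Dok7 came nearest to one at 30.03 kb.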

How the data were processed

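For the Flag ChIP-seq of 4 libraries, 1 peak list was deposited, with no library named in it. Reads were aligned with BWA 0.5.8a to mm9 (NCBIM37), per the submitters' processing notes. How peaks were called, and whether sets were pooled, is not given in the sources used here. Both scores of a peak (ChIP score and background score) are deposited values with no stated scale, per the file headers. The deposited tag count is a whole number for each region, and the peaks of a region share it. A mitochondrial peak (1 of 2455) was left out. Maxima were assigned to the nearest start of a protein-coding gene (GENCODE M1, same build, 22338 of 22367 such genes could receive a peak) in Python 3.11.15 with pandas 2.3.3 and pysam 0.24.0. Intervals are exact 95% Poisson or binomial (SciPy 1.17.1). Motifs were searched on both strands in 200 bp around each maximum and in flanks 1 kb away. Assignment and search were tested on simulated data.

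Slc18a3 did not match and Tmem35a matched as Tmem35. No group test was made. The members, gene lists, motifs and alternatives were chosen with earlier results of these data known. Named genes are the 6 members, genes beside their peaks, and up to 4 genes per list with the strongest peak and up to 2 without. The nicotinic subunits without a peak, Dok7 and Unc79 were named beyond this rule after their values were seen. Some genes that this rule selects are left out here. Receptor families outside acetylcholine signalling are in the closing section.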

Additional observations from a re-analysis of the deposited data

How the results depend on the processing

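The count of 3 assigned peaks, and of 3 genes with one, held with protein-coding transcripts only, within 100 kb, with the middle of the region, with peaks whose background was below 10% of the ChIP score and with 1 peak per region. It was 2 with all annotated genes (Chrnb4 lost to U7) and within 10 kb. In the top-scoring 50% and in the top 25% of the list it was 1 (Chrnb4) for both counts. With any peak within 100 kb of a start, 5 genes had one, all but Chrna7, against 21.0% of all coding genes. The same 5 had one within 50 kb of the gene body (added after the data were seen). These 5 genes stand at 3 of 4 separate loci. Within 10 kb of the gene body 2 genes had one. The share of all coding genes was not computed for the rules that use the gene body, so these counts have no background to be read against. By ChIP tags the median strength was 25 tags. TAATTA was at 2 of 3 peaks in windows of 100 and 500 bp as well, against 26.4% and 41.6% of all peaks. The STAT site TTCNNNGAA was at 0 of 3 in 100 bp, against 2.08% of all peaks. With 1 added to each score the highest background share rose from 0.142% to 2.89%. No paired analysis was possible because the list has no value per library, for which reason no library could be left out either.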

Other observations

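Subunit genes of other receptor channels were counted in the same way. Of 26 genes of the remaining Cys-loop family (GABA-A, glycine and serotonin type 3 receptors), the structural relatives of nicotinic subunits, 1 had one (3.85%, 0.0973 to 19.6): Gabrg3, with a score of 33.19 in an intron. Glra1 had none. Of 18 ionotropic glutamate receptor genes, 3 had one (16.7%, 3.58 to 41.4): Grik3 (49.78), Grik4 (45.23) and Gria3 (43.63), and Gria1 and Grin1 had none. The peaks of Grik3, Grik4 and Gria3 lay 44.0, 47.5 and 78.7 kb from a start. The shares of both families stand beside 3 of 6 for the nicotinic genes examined and 8.17% of all coding genes. Within 100 kb of a start, whichever gene was nearest, 0 of the 26 and 4 of the 18 had a peak, against 5 of the 6. The share of all coding genes was 21.0%. By this measure 4 of 5 muscle subunit genes, 1 of 5 other neuronal subunit genes and 4 of 8 acetylcholine genes had a peak. The 5 rest on 3 of 4 separate loci, and the other counts were not reduced to loci. The differences were not tested. Background scores were 5.21 at Grik3, 4.66 at Grik4, 2.35 at Gria3 and 2.9 at Gabrg3. At Grik3 and Grik4 this was above 10% of the ChIP score. At Gria3 and Gabrg3 it was below that limit, as it was at all 3 nicotinic peaks. The share of all peaks below the limit is not given here.

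Both unassigned peaks within 100 kb of a start of the 6 genes had a Ube2q gene as the nearest coding start: Ube2q2 beyond Chrnb4 and Ube2q1 beyond Chrnb2. This was noticed after the values were seen. The 300 bases from 250 before each of the 13 starts of the 6 genes held no TAATTA, which was in 4.14% of 70051 coding-gene starts, while ATTA was at 3 of 13 against 52.1%. The looser STAT site TTCNNNGAA was at 2 of 13, both of them Chrna5 starts, against 7.54%. Several starts of Chrna4, Chrna5 and Chrna7 lie less than 300 bases apart, so their windows share bases and the 13 are not separate. A missing match says only that these letters are not in that window.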
